A study of Mus musculus with 4 samples.

Results

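The sites described here are those with a strong enrichment for N6-methyladenosine (m6A) at the same place in both of the deposited site lists. Members were selected on the fold enrichment: they are pairs of sites, 1 from each list, that shared at least 1 base and had a value of 40 or more in both lists, with each site used once and the largest overlap taken first. There were 402 such pairs in 348 genes, out of 6038 sites in list 1 and 8246 sites in list 2. This value is the ratio, as given by the authors, of immunoprecipitated over input signal at a site. Equal values recurred across genes, and how the input entered the ratio is not known. Since the fold chose the members, fold values are given as a description without a test.

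The data came from methylated RNA immunoprecipitation sequencing of epidermal keratinocytes of mice at postnatal day 0. All 4 libraries had the genotype K14Cre, Mettl14F/+, that is, a Cre driven by the keratin 14 promoter and a single floxed allele of Mettl14, and none had another treatment. The groups were control m6A IP (2 libraries), in which fragments of polyadenylated RNA were pulled down with an m6A antibody, and control input (2 libraries). The labels tie neither list to a library and do not say whether the replicates were separate animals, and the lists hold no read counts, so the depth per library is unknown and replicate spread could not be used in a test.

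m6A is placed on messenger RNA in the nucleus by a methyltransferase complex of METTL3 and METTL14, mostly at adenosines in GGAC and related short words. Reader proteins bind the mark and change splicing, export, translation and decay of the transcript. In mammalian mRNA the mark is known to gather in long internal exons, near stop codons and in the last exon. In the epidermis the complex is studied for its part in the balance between basal progenitors and differentiating layers.

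No genome sequence was used here, so sequences are shown where a reference table held the bases under a site: at microRNA hairpins and at gene starts. Hairpins of 3 microRNAs lay under member pairs (0.746% of 402, against 0.444% of 1800 other overlapping pairs). The site in Dnm3os, a long noncoding RNA and the host of miR-199a-2, had folds of 278.94 in list 1 and 128.21 in list 2 over the same 380 bases in both lists, and all 110 bases of the hairpin lay within it. A site assigned to a transcript of the homeobox gene Hoxb4 had folds of 181.23 and 96.56 over the same 419 bases and held all 110 bases of the miR-10a hairpin. A site assigned to Mir133b had folds of 376.17 and 64.1, and the hairpin under it was that of the muscle microRNA miR-206, of which 73 of 73 bases lay in the site of list 1 and 28 in that of list 2. These sites were called on fragments of longer transcripts and do not measure the mature microRNAs. The mature arms that lay whole within the overlap are shown from RefSeq (GRCm38.p6, all on the plus strand), with the seed, bases 2 to 8, in capitals.
mmu-miR-199a-5p, chr1:162217844-162217866: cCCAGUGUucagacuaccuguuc
mmu-miR-199a-3p, chr1:162217883-162217904: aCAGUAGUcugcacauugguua
mmu-miR-10a-5p, chr11:96317186-96317208: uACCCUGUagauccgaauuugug
mmu-miR-10a-3p, chr11:96317227-96317248: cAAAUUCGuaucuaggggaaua
mmu-miR-206-3p, chr1:20679055-20679076: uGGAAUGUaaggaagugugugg

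The 5 arms had 5 different seeds. The word GGAC was found once among these hairpins, in that of miR-199a-2, between the arms, and the 30 bases around it are shown with the word in capitals.
Mir199a-2 hairpin, chr1:162217855-162217884, plus strand: gacuaccuguucaGGACaaugccguuguac

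Some sites began exactly at an annotated gene start. Of 318 member pairs in genes with a start sequence in RefSeq, 7 began at such a start in both lists (2.20%), against 49 of 1353 other pairs (3.62%). The 6 of them with an overlap of at least 30 bases are shown, 30 bases on each side of the start, because the bases on both sides of a site's edge are known there: capitals mark the bases inside the site and lower case the bases before it. The sequences are from RefSeq (GRCm38.p6), written along the gene strand.
Fam172a, chr13:77708660-77708719, plus strand: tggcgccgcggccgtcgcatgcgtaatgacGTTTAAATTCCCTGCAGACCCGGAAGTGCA
Jarid2, chr13:44730744-44730803, plus strand: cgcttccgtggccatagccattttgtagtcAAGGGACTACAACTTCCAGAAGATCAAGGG
Ror1, chr4:100095761-100095820, plus strand: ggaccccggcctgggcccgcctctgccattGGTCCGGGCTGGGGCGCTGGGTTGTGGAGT
Xiap, chrX:42067806-42067865, plus strand: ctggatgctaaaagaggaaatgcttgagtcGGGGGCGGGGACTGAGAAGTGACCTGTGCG
Crlf2, chr5:109558964-109559023, minus strand: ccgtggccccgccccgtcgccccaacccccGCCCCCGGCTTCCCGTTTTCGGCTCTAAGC
Harbi1, chr2:91712050-91712109, plus strand: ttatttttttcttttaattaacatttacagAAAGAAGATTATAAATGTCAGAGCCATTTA

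The folds at these starts were 509.44 in list 1 and 193.17 in list 2 for Fam172a, and 94.65 and 106.84 for Jarid2, which encodes a partner of Polycomb repressive complex 2. They were 233.58 and 62.33 for the receptor kinase gene Ror1, and 63.76 and 58.76 for Xiap, an inhibitor of caspases. The cytokine receptor gene Crlf2 had 56.52 and 54.8, and Harbi1 had 51.57 and 196.53. The FDR, the false discovery rate given by the authors, was 100% in list 1 for Jarid2, Xiap and Crlf2. In Xiap, Crlf2 and Harbi1 the start lay downstream of the first base of the annotated gene span. GGAC was present on the gene strand in the first 50 bases of 2 of the 6 starts, Jarid2 and Xiap, and on the other strand in 1 of 6, Ror1. The share among all 32851 RefSeq start windows of 50 bases was 18.9% on the gene strand and 17.4% on the other. Any of 18 five-base words (A, G or T, then A or G, then AC, then A, C or T, a set that overlaps GGAC) was present on the gene strand in 5 of 6, against 54.4% of all start windows, and on the other strand in 3 of 6, against 55.2%. With 6 windows these counts are a description only.

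Fold enrichment of 40 or more was held by 1612 sites of list 1 (26.7% of the list) and 2104 of list 2 (25.5%). Of the 2202 pairs of overlapping sites, the 402 members made up 18.3%, a share set by the rule. A further 263 pairs reached 40 in list 1 only, 217 in list 2 only and 1320 in neither. Sites of list 2 lay under 666 of the 1612 strong sites of list 1 (41.3%), and 402 of these 666 (60.4%) overlapped a strong one. Sites of list 1 lay under 621 of the 2104 strong sites of list 2 (29.5%), and in 402 of these cases (64.7%) it was a strong one. Of sites under 40, 35.0% in list 1 and 25.9% in list 2 overlapped the other list. Among sites of 300 or more, 51.8% in list 1 (95% Wilson interval 46.2 to 57.4) and 45.97% in list 2 (40.4 to 51.6) overlapped the other list, against 37.3% (33.9 to 40.9) and 25.5% (23.0 to 28.3) of sites between 40 and 100. Between 5 and 10 the shares were 38.6% and 28.3%, no lower than between 40 and 100. Intervals here and below cover counting error over sites only.

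**Figure D1:**
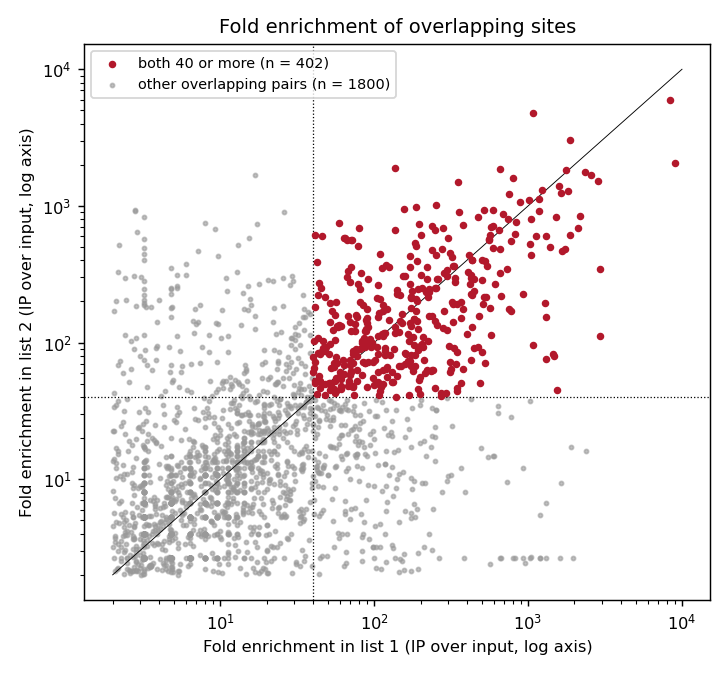
Fold enrichment in list 1 (x axis) and list 2 (y axis) of overlapping sites, both axes on a log scale, with 1 point a pair. Red points are the 402 pairs with 40 or more in both lists, grey points are the 1800 other pairs, dotted lines mark 40 and the solid line marks equal values.

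Within the members the median fold of list 1 was 169.5, with quartiles of 77.8 and 346. That of list 2 was 141.5, with quartiles of 72.4 and 329. The lower fold of the pair was 40 to 100 in 214 members, 100 to 300 in 122 and 300 or more in 66. It reached 1000 or more in 14. The higher fold was at most 2 times the lower in 58.7% of members, against 50.3% of the other pairs, and more than 4 times in 15.9% against 26.9%, although the minimum in both lists limits how far members can differ. List 1 had the higher fold in 213 of 402 members. The closest values were those of Wdr60 (118.39 in list 1 and 118.56 in list 2), Rfwd2, which encodes the ubiquitin ligase COP1 (251.26 and 251.84), and the dynein gene Dnah2 (51.01 and 50.75). For Dnah2 the FDR was 100% in both lists, so the close values are of a weakly supported site. The widest were those of Lin54, a subunit of the cell cycle repressor complex DREAM (1552.21 and 45.18), the predicted gene Gm10717 (2918.5 and 112.18) and AK048672 (1476.36 and 79.55). In the other direction, Ttc37, which encodes a subunit of the SKI complex of RNA decay, had 41.28 in list 1, with an FDR of 100% there, and 616.1 in list 2.

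Score and FDR also differed between members and the other pairs. The score, minus 10 times the log10 of the site's p-value, stood at 3100 or more in both lists in 273 members (67.9%), against 67 of the other pairs (3.72%). The FDR was below 100% in both lists in 371 members (92.3%), against 16.4% of the other pairs, but no site of either list was below 51.2%. It was 100% in list 1 for 28 members (6.97%) and in list 2 for 6 (1.49%). Among strong sites outside the member pairs the FDR was 100% in 4.38% in list 1 and 1.53% in list 2. Their score was 3100 or more in 70.1% and 57.2%, against 79.6% and 76.1% of members, so these traits were not particular to members. Fold, score and FDR come from the same signal, so these shares follow the rule. At the edge of the rule, the 5 members with the lowest values were Ackr3 (40.42 in list 1 and 65.02 in list 2), Zfp553 (40.36 and 101.91), Ubl3 (40.3 and 78.64), the nuclear export gene Xpo1 (40.24 and 60.61) and Rsu1 (139.18 and 40.09). Just outside lay H2-Q8 (39.85 and 40.06), Zc3h13 of the m6A writer complex (296.68 and 39.5), Mllt4 (39.48 and 55.08), Rnf114 (39.08 and 44.04) and Runx1t1 (427.18 and 38.73).

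Both members and other pairs had to overlap and were paired by their coordinates, largest overlap first, but equal starts or ends were not asked for. Of the 402 members, 169 had the same start and the same end in both lists, to the base (42.0%, interval 37.3 to 46.9), against 534 of 1800 other pairs (29.7%, 27.6 to 31.8). At least 1 end was shared by 79.4% of members and 73.1% of the other pairs. Across classes of the lower fold, the same interval was held by 28.2% to 31.4% of pairs in the classes under 40, by 40.2% between 40 and 100, by 39.3% between 100 and 300 and by 53.0% (41.2 to 64.6) at 300 or more. The difference was widest among overlaps of over 100 and up to 200 bases, with 93 of 116 members (80.2%) against 263 of 574 other pairs (45.8%). In the other length classes the intervals of members and other pairs overlapped. The shares were 40.5% against 33.3% up to 100 bases and 18.9% against 12.7% at over 200 and up to 400. Above 400 bases they were 12.5% against 6.93%. No test was run, because sites of the same libraries are not replicates. Exon annotation was not used here.

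The overlap had similar medians in members and the other pairs, and a higher upper quartile in members. It had a median of 172.5 bases in members (quartiles 92 and 347) and 155 in the other pairs (78 and 221). The longest shared stretch was in Dsp, which encodes the desmosomal plaque protein desmoplakin, with 2295 bases and folds of 85.65 in list 1 and 108.66 in list 2. Next were Ahnak, a very large scaffold protein gene (1565 bases, 46.28 and 103.45), the ubiquitin ligase and apoptosis inhibitor gene Birc6 (1164 bases, 141.71 and 225.11), the protocadherin gene Pcdh18 (1087 bases, 746.55 and 175.49) and Eppk1, which encodes the cytolinker epiplakin (770 bases, 137.54 and 668.55). The shortest were 3 bases in Alg9 (76.27 and 90.19), 6 in Gm17720 (41.44 and 72.12), 10 in Rsbn1l (53.14 and 170.94) and 11 in Fam175b (661.55 and 486.11) and Bin3 (72.98 and 71.1).

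**Figure D2:**
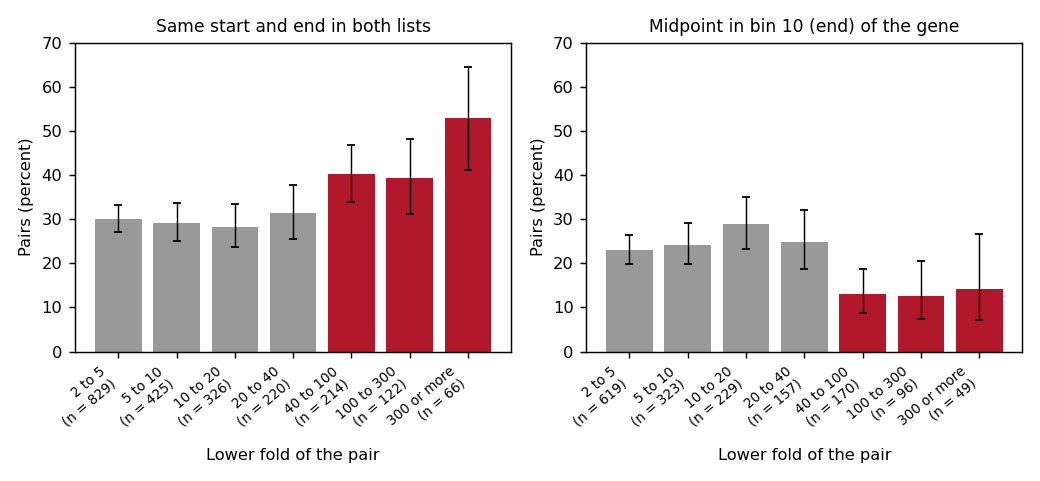
Share of overlapping pairs with the same start and end in both lists (left) and with a midpoint in bin 10, the end of the annotated gene (right), by class of the lower fold of the pair (x axis), with n under each bar. Red bars are the classes of 40 or more, grey bars those under 40, and error bars are 95% Wilson intervals. From 40 upward the same interval is held by 39.3% or more, and bin 10 by 14.3% or less.

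Fewer members than other pairs lay at the very end of the gene. Place along the gene, which counts introns, could be set for 315 members in genes with a RefSeq span and strand, and each gene was cut into 10 bins of equal length, from bin 1 at its start to bin 10 at its end. The midpoint lay in bin 10 in 41 of these 315 (13.02%, interval 9.74 to 17.2), against 325 of 1328 other pairs (24.5%, 22.2 to 26.9). Bin 1 held 30 members (9.52%, interval 6.75 to 13.3) against 180 other pairs (13.6%, 11.8 to 15.5), with intervals that overlapped. Bin 9 held 58 members (18.4%) against 154 other pairs (11.6%), so the highest share of members came just before the final bin. Within 1000 bases of the gene's end lay 14 members (4.44%) against 130 other pairs (9.79%). The median place, from 0 at the start to 1 at the end, was 0.629 in members and 0.665 in the other pairs.

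In bin 10, strong sites outside the member pairs stood between these groups. It held 199 of 922 in list 1 (21.6%, interval 19.0 to 24.4) and 217 of 1295 in list 2 (16.8%, 14.8 to 18.9). The list 2 interval overlapped that of members (9.74 to 17.2). Sites under 40 had 27.3% in list 1 and 28.8% in list 2. In bin 1 the strong sites outside the pairs had 6.72% (5.28 to 8.53) and 8.49% (7.10 to 10.1). Members had 9.52% (6.75 to 13.3), with intervals that overlapped. Their median place was 0.6535 in list 1 and 0.620 in list 2, against 0.629 in members, so an earlier median place was not particular to members. Counted once for each site or pair, the genes of members had a median span of 66467 bases, against 47284 for the other pairs. It was 58809 and 70003.5 for strong sites outside the pairs in list 1 and list 2, so a long span was not particular to members. Counted once for each gene, the median was 64294 in members and 44168.5 in the other pairs. The part of span and of site length in the difference of place was not tested beyond the following classes. In genes above 87172 bases bin 10 held 21 of 130 members (16.2%) against 133 of 423 other pairs (31.4%). In genes between 29578 and 87172 bases it held 10 of 116 (8.62%) against 107 of 445 (24.0%). In shorter genes it held 10 of 69 (14.5%, interval 8.07 to 24.7) against 85 of 460 (18.5%, 15.2 to 22.3), with intervals that overlapped. By length of the overlap, bin 10 held 18 of 103 members (17.5%) against 154 of 383 other pairs (40.2%) at over 200 and up to 400 bases, and 11 of 90 (12.2%) against 66 of 441 (14.97%) at up to 100 bases. The lists hold no expression values.

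**Figure D3:**
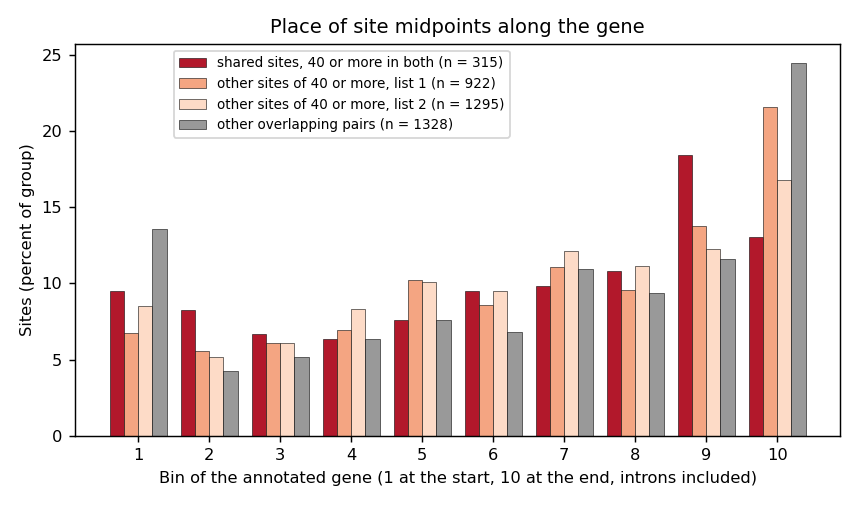
Share of sites (y axis, percent of the group) by bin of the annotated gene in which the midpoint lies (x axis, 10 bins of equal length, 1 at the start and 10 at the end). Bars are, from left to right, the shared strong sites, other sites of 40 or more in list 1 and in list 2, and other overlapping pairs. The shared strong sites are highest in bin 9 (18.4%) and the other overlapping pairs in bin 10 (24.5%).

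Several members lay in the same gene in 43 of the 348 genes, which held 97 members, and 9 of these genes held 3 or more. The share of other genes with several overlapping pairs was not computed. Genes with a member had a mean of 2.35 sites in list 1 and 2.94 in list 2, against 1.57 and 1.84 in the other genes with an overlapping pair. A single site in each list was held by 23.3% against 45.8%. A gene with more sites has more chances to hold a member, and the part of this was not tested. Macf1, which encodes a giant linker of actin and microtubules, had 4 members, with 54087 bases from the end of the first to the start of the last, and with folds of 562.34 in list 1 and 178.7 in list 2 at the strongest, then 151.61 and 139.78, 88.41 and 122, and 70.6 and 48.34. Of these, 3 lay at 0.89 to 0.91 along the gene and 1 at 0.753. The other distances are measured in the same way. Syne2, which encodes the nuclear envelope linker nesprin-2, had 4 members over 109084 bases, with 251.03 and 438.04, 431.31 and 129.54, 191.79 and 125.9, and 191.9 and 45.74. Fat1, an atypical cadherin, had 3 across 87830 bases (247.79 and 670.33, 179.12 and 109.61, 86.61 and 71.11).

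In other genes the members were close together. The median distance from the first to the last member was 4497 bases, and it was at most 5000 bases in 22 of the 43 genes. Brms1l, a subunit of the Sin3 histone deacetylase complex, had all 3 of its sites of each list as members within 4497 bases, with 1579.66 in list 1 and 1397.42 in list 2, 224.46 and 216.73, and 114.67 and 189.98. Eif3a, which encodes a subunit of the translation initiation factor eIF3, had 3 within 6602 bases (1032.65 and 531.01, 72.58 and 47.78, 51.87 and 44.93). Vps13d, a lipid transfer protein gene, had 3 within 16346 bases, at 516.44 and 938.84, 427.18 and 312.5, and 146.24 and 222.51. Neighbouring members of a gene did not always keep their order: in Hipk1 the folds were 1298.91 and 602.3 at one site and 59.18 and 744.72 at the other, and in Phip 1749.06 and 484.78, and 352.62 and 1506.42. Members of a gene share their transcript and libraries and are not independent.

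**Figure D4:**
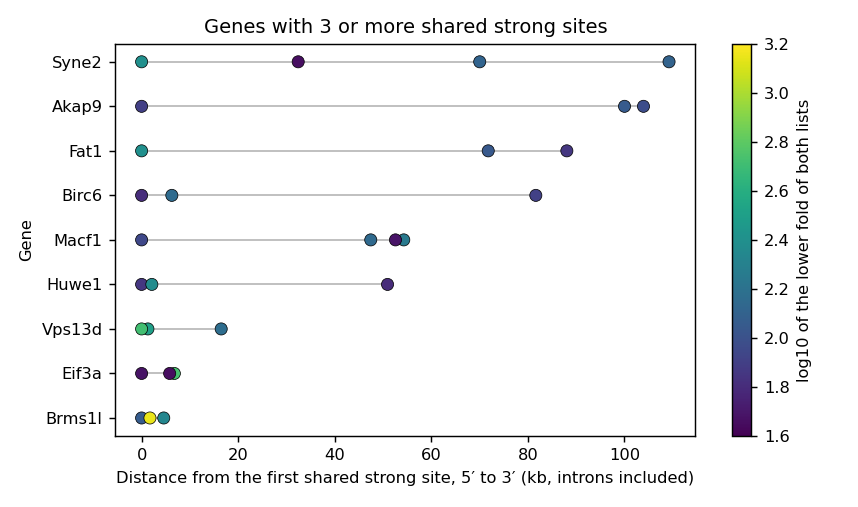
Distance of each shared strong site from the first of the gene (x axis, kb along the gene with introns) in the 9 genes with 3 or more, coloured by the log10 of the lower fold of both lists. The sites of Syne2 are spread over 109084 bases and those of Brms1l lie within 4497 bases.

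The members of rank 11 to 20 by the lower fold, after the 10 from Rdx to Hipk2, began with Flg2, which encodes a relative of filaggrin made in the outer epidermis (1231.25 in list 1 and 1299.59 in list 2), Rabggtb, a subunit of the enzyme that prenylates Rab proteins (1179.26 and 1127.27), and Trrap, the scaffold of histone acetyltransferase complexes (1074.32 and 4823.75). The mitotic inhibitor kinase gene Wee1 (1020.36 and 1096.91), the Rac activator gene Tiam1 (1177.67 and 916.77), the endosomal gene Rabep1 (883.47 and 1065.13) and Zcchc11, which encodes the RNA uridylyltransferase TUT4 (2159.79 and 842.69), followed. Sox6 (1525.35 and 834.14) encodes a transcription factor, Ino80d (797.99 and 1609.25) a subunit of the INO80 chromatin remodeller, and Bdp1 (1044.03 and 797.28) a subunit of the RNA polymerase III factor TFIIIB. All 20 highest pairs had a score of 3100 or more in both lists, 10 had the same interval in both, and of 14 with a known place 1 lay in bin 10, that of Tiam1. Sites of predicted or Riken-named genes, clustered protocadherin (Pcdhb), histone and ribosomal protein genes, 21 of the 402 pairs, are uncertain where reads of close copies could not be told apart. These genes were picked by name, without a comparison of sequence, and other members may have close copies too.

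Among all genes, 348 of the 1805 with an overlapping pair had a member, 19.3%, which was 5.25% of the 6625 genes with any site. The gene lists that follow were chosen with earlier results of these data known and some hold genes already seen to have strong sites, so their shares are no independent evidence. Of the 69 histone and chromatin modifier genes, 63 had a site, 29 an overlapping pair and 15 a member. The strongest was Smarcc1, a core subunit of the SWI/SNF remodeller (502.66 in list 1 and 288.54 in list 2). The histone H3 lysine 4 methyltransferase genes Kmt2a (220.93 and 292.47) and Setd1b (176.87 and 236.81), the Polycomb-associated gene Asxl2 (172.15 and 269.77) and the remodeller gene Chd4 (239.11 and 155.86) were next. Nsd1 and Setd2, which encode methyltransferases of histone H3 lysine 36, had 2 members each, with 164.67 and 116.19 and with 145.17 and 120.36 at the stronger. Over all 55 overlapping pairs of the list the median lower fold was 14.2, against 7.97 over all 2202 pairs. A gene with more pairs has more chances to hold a member, in this list and in those below. This list had 55 pairs in 29 genes, against 2202 in 1805, and the part of this was not tested.

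Ubiquitin ligase genes had a member in 6 of 10 genes with an overlapping pair. Besides Ubr4 (1864.64 and 3016.25) they included Huwe1 with 3 members (236.79 and 472.76 at the strongest), Birc6 with 3, Fbxw7, the substrate receptor for cyclin E and Notch (472.27 and 92.44), and Fbxo11 (46.82 and 90.93). Kinase and growth factor receptor genes had a member in 6 of 12. All members of the Hipk family on the list had at least 1, with 1636 and 1247.9 in Hipk2, 1298.91 and 602.3 in Hipk1 and 170.6 and 357.91 in Hipk3. These kinases act on transcription factors and p53. The Ras activator gene Sos1 (154.16 and 305.02), Map3k4 (368.58 and 50.98) and Wnk1 (51.53 and 97.99) were the others. No growth factor receptor on the list had a member. Of these receptors only Fgfr2, Pdgfra and Pdgfrb had an overlapping pair, too few to be set apart from the 19.3% of all genes with a pair.

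Translation and ribosome genes had a member in 6 of 12. Besides Eif3a they were Prrc2c, a stress granule protein gene (108.33 and 445.54), the initiation factor genes Eif4b (144.49 and 67.09) and Eif4g1 (67.1 and 48.45), and the ribosomal protein genes Rpl17 (651.39 and 671.17) and Rps12 (44.84 and 85.45), which have close copies. Cytoskeletal linker and motor genes had a member in 7 of 25 (28.0%), among them the non-muscle myosin gene Myh9 (539.4 and 366.35), the kinesin gene Kif13a (554.34 and 571.59) and the dynein heavy chain gene Dync1h1 (148.27 and 143.42). Of the m6A writers, erasers and readers, 3 of 9 had a member: Eif3a, the nuclear reader gene Ythdc1 with 2 (399 and 115.28, 194.79 and 53.59) and the writer subunit gene Rbm15 (110.32 and 46.97). The counts of 7 of 25 and 3 of 9 are too small to be set apart from the 19.3% of all genes with a pair.

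Each list of keratinocyte structure and signalling genes had a member in 1 gene. The hemidesmosome and basement membrane list had a member in 1 of 8 genes with an overlapping pair, the laminin gene Lamc1 (323.71 in list 1 and 142.21 in list 2). The desmosome and adherens junction list had 1 of 9 (Dsp), the epidermal transcription regulators 1 of 7, the repressor gene Prdm1 (330.1 and 364.1), and the cornified layer and lipid barrier list 1 of 4 (Flg2). Notch, Wnt, Hedgehog, TGF-beta and Hippo genes had 1 of 9 (Fat1). None of the 3 genes that the series names, Col17a1, Itga6 and Itgb4, had a member, and only Itga6 had an overlapping pair (24.02 in list 1 and 6.31 in list 2). With 4 to 9 genes a list, these counts are too small to be set apart from 19.3%.

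How many genes of the labelled cell type had a site depended on the list taken. It was 17 of 18 in the desmosome and adherens junction list and 21 of 24 in the hemidesmosome and basement membrane list. For epidermal transcription regulators it was 20 of 25, and for the cornified layer and lipid barrier list 18 of 31. Of 10 keratinocyte markers 4 had a site in either list and 1 a member (Dsp), which was 1 of the 2 with an overlapping pair, and Krt14, Krt1, Krt10, Krt15, Perp and Sfn had no site. Trp63, which encodes the basal cell regulator p63, lay just below the rule with 41.49 in list 1 and 37.88 in list 2. A site was found in 7 of 10 markers of dermal fibroblasts, 4 of 8 of melanocytes and 8 of 14 of endothelial, immune, muscle and nerve cells, and no member in any of them. Overlapping pairs were held by 4, 2 and 4 of these markers, too few to set the counts of members apart from the 19.3% of all genes with a pair. A site needs methylation as well as expression, so these counts do not measure the makeup of the cells.

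**Figure D5:**
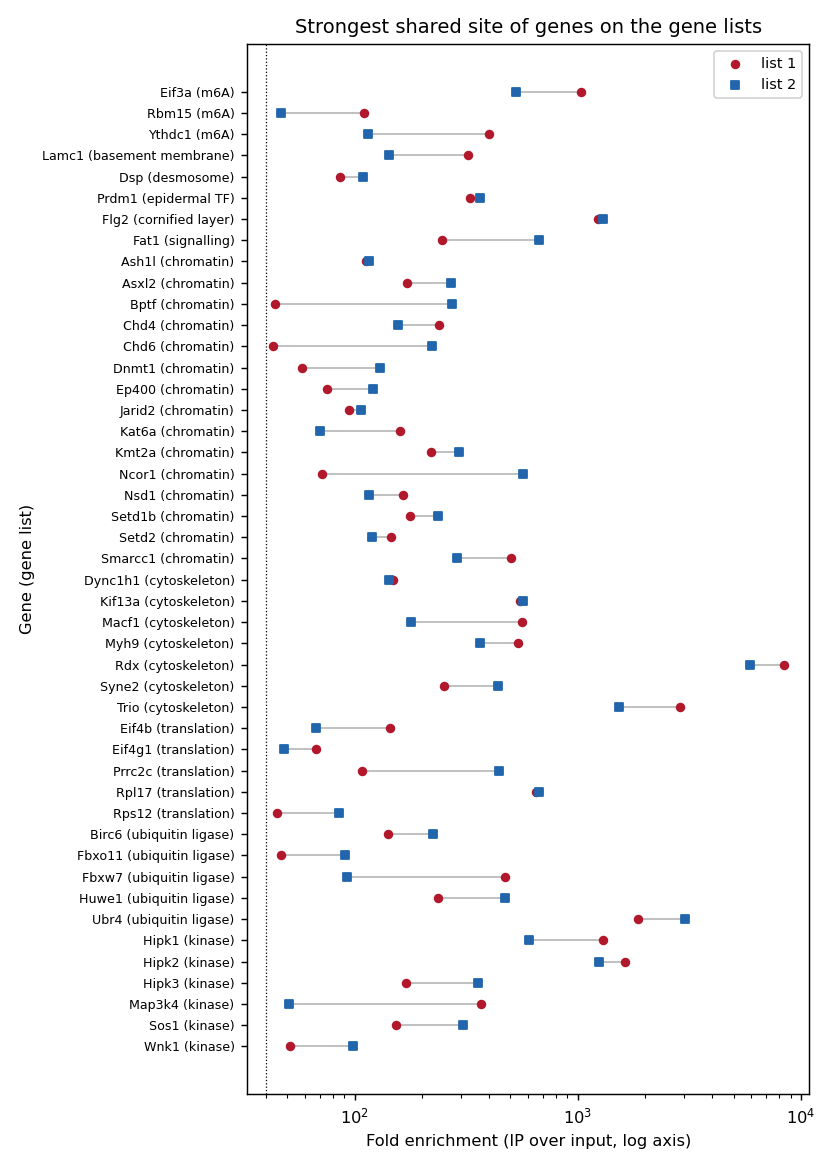
Fold enrichment (x axis, log scale) in list 1 (red circles) and list 2 (blue squares) at the strongest shared site of genes of the lists that had a member, with a grey line between the values of a gene and the dotted line at 40. Rdx is highest, at 8373.25 in list 1 and 5946.2 in list 2.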

How the data were processed

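The deposited data are 2 lists of methylated mRNA sites on GRCm38, per the submitters' processing notes. MACS, a peak caller, appears in the site names of the deposited lists. Its version, aligner, filters, pooling and annotation were not given in the sources used here. Fold enrichment was deposited as a ratio of IP over input, the score as minus 10 times the log10 of the p-value, and the FDR as a percent. No depth can be given, as no counts were used. Per the deposited coordinates, end minus start equals the length, so 1 was added to each start.

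The fold minimum of 40 was applied first, then each site was used once, largest overlap first. The pairing was tested on simulated lists. Genes were matched by identifier to RefSeq (GRCm38.p6) for span, strand, start sequences and microRNAs, and 3 list symbols by identifier only. A gene span was matched for 385 members and a strand too for 315. Members and gene lists were chosen with earlier results of these data known.

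Named genes are the 20 highest pairs by the lower fold (the 10 highest in outline), genes with several members, 5 on each side of the minimum, up to 5 a gene list, and the extremes of overlap length and of agreement, each in part. Genes past these limits (Fbxo11, Map3k4, Rps12, Dync1h1, Trp63, the hairpin hosts and the 6 gene-start genes) were chosen after their values were seen. The values of 1 gene are not reported here. No test was run. Alternatives were other fold minimums, a reciprocal overlap, FDR and score filters, each list's coordinates, and leaving out gene families taken by name to have close copies. Those families were the predicted and Riken-named, clustered protocadherin, histone and ribosomal protein genes. Sequence was not compared, so other genes with close copies stayed in. Python 3.11.15, pandas 2.3.3 and scipy 1.17.1 were used.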

Additional observations from a re-analysis of the deposited data

How the results depend on the processing

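Under fold minimums of 30 and 60 the number of members was 491 and 302, and with an FDR below 100% in both lists it was 371. It was 401 when pairs were formed before the fold minimum, an order chosen after seeing the data. The share of members in bin 10, the end of the gene, ranged from 11.8% to 14.6% over all alternatives, the median place from 0.593 to 0.654 and the median overlap from 168 to 192 bases. Of these shares and medians, 2 left the 95% interval of the reported value. The share of pairs within 2-fold was 63.7% with a score of 3100 or more in both lists (added after seeing the data), and the share with the same interval was 47.6% with a reciprocal overlap of 50%, which by construction drops pairs of unequal extent. The planned share of members with GGAC in fixed windows, with its other window and motif, was not run, because no genome was used here. No paired analysis was possible because the lists carry no values per library and are not tied to replicate numbers. For the same reason no replicate could be left out of a list, and using the coordinates of list 1 or list 2 alone gave 13.02% and 12.7% in bin 10. Read depth sets which sites reach the minimum and is unknown.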

Other observations

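The annotation terms deposited with the sites describe the member genes without a list chosen here. Among the 15 most frequent terms of each kind, nucleoplasm was given to 20.7% of annotated member genes, against 10.9% of other genes with an overlapping pair and 13.2% of other genes with any site. Binding of poly(A) RNA was given to 17.6%, against 7.21% and 8.07%, cytoskeleton to 16.1%, against 8.64% and 7.88%, and chromatin modification to 5.02%, against 1.74% and 1.77%. Of genes with a pathway, the spliceosome held 8 of the member genes (7.02%, against 2.19% and 2.73%) and ubiquitin mediated proteolysis also 8 (7.02%, against 2.56% and 3.17%). The share was the other way round for integral components of membranes, with 10.6% of member genes against 20.4% and 20.7%, and for metabolic pathways, with 8.77% against 13.7% and 16.2%. These terms were picked from the frequent ones after their shares were seen, no test was run, and genes with a member are longer than the other genes with a pair and carry more sites, the part of which was not tested.

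In list 1 both member sites of the predicted gene Gm10717 had the same fold, 2918.5, while list 2 gave 112.18 and 343.22.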
